A study of Homo sapiens with 16 samples.

Results

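Collagen-treated MCF10A cells that received DDR1-IN-1 (DDR1i) were compared with collagen-treated cells that received AI-10-104 (RUNXi), directly and without any collagen-only library in the test. MCF10A is a human breast epithelial line that became immortal by itself and does not form tumors, and it was grown here in 2D. The 8 libraries, replicates 1 to 4 of collagen with DDR1i and replicates 1 to 4 of collagen with RUNXi, were chosen by their labels, out of 16 bulk RNA-seq libraries in the series. Cells were exposed to 2 μM DDR1i or to 5 μM RUNXi over 48 h, and to collagen 1 (0.05 mg/mL) during the final 24 h of it, so that inhibitor and dose cannot be told apart. Nothing in the labels says that replicates came from separate cultures, and p-values then measure the spread between these libraries, which may be technical. In bulk RNA, fewer cells of a type and less RNA per cell cannot be told apart.

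DDR1 is a receptor tyrosine kinase that binds fibrillar collagen, and DDR1-IN-1 is a small molecule inhibitor of its kinase. RUNX proteins are transcription factors that bind DNA together with CBFβ, and AI-10-104 blocks that interaction for all RUNX family members. Among the pathways described here, NRF2 is a transcription factor that is held down by KEAP1 and, under oxidative or electrophilic stress, turns on detoxification, glutathione and iron storage genes through antioxidant response elements. The sterol sensor SCAP and the retention protein INSIG1 set how much SREBP transcription factor reaches the nucleus, where it turns on cholesterol and fatty acid synthesis.

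Total counts ranged from 16173156 to 24133596 in the DDR1i libraries and from 15558341 to 26162434 in the RUNXi libraries. The mean difference was -512126.2 counts (two-sided exact permutation test, p = 0.83; smallest possible p 0.0286, n = 4 and 4), and the number of genes detected did not pass the test either (exact permutation p = 0.457). Genes with 1 to 9 counts numbered 1906, 3147, 457 and 1839 in DDR1i replicates 1 to 4 and 208, 1556, 416 and 2662 in RUNXi replicates 1 to 4, so that DDR1i replicate 3 and RUNXi replicates 1 and 3 stood apart. All 10 breast epithelial markers were expressed, whereas COL3A1 of the fibroblast markers, 4 of 8 endothelial markers, 7 of 12 immune markers, PTPRC among them, and 6 of 10 secretory and hormone-sensing markers were at 0 in the 8 libraries. The epithelial markers summed to between 11510 and 13970 CPM with DDR1i and between 17810 and 20410 CPM with RUNXi, without overlap. Keratins weigh heavily in these sums, with KRT5 alone at 7048 to 8726 and 10193 to 10922 CPM. KRT5 and KRT14 were past the test (20.0% of the 10 markers, against 0.641% of all genes). Of the 10, 6 were lower and 4 higher with DDR1i, at a median log2 fold change of -0.12. The part of these markers in the other results was not tested. Marker sums are CPM of library totals, without the scaling used for levels of single genes. Fibroblast markers summed to 35.4 to 74.7 CPM with DDR1i and 39.6 to 51.2 CPM with RUNXi, and immune markers to 22.5 to 38.5 and 9.58 to 32.1 CPM.

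The inhibitors were set apart by 83 differentially expressed genes (DEGs), 49 higher and 34 lower with DDR1i than with RUNXi. These were 0.641% of the 12953 genes tested (0.378% higher and 0.262% lower), and a DEG is a gene with an adjusted p under 0.05 in the quasi-likelihood test of edgeR, adjusted by the Benjamini-Hochberg method. The 2 groups of libraries did not overlap in CPM for 48 of the 49 and 33 of the 34 genes. Over all genes, 2.38% lay wholly higher and 2.18% wholly lower with DDR1i (4.55% in either direction). The 83 genes were chosen by a test on these same values, so that little overlap among them follows largely from that choice and is no separate support. The genes lower with DDR1i, which is to say higher with RUNXi, included 10 NRF2 target genes, the transferrin receptor and basal keratins. The genes higher with DDR1i included 11 genes of cholesterol and fatty acid synthesis, the matricellular genes TNC and TINAGL1, and FOSL1. Log2 fold changes are DDR1i minus RUNXi throughout, levels are read counts relative to library size (CPM) scaled by edgeR's TMM method over the 8 libraries, and errors of fold changes are standard errors. CPM is not corrected for transcript length, so that levels are compared between libraries for the same gene and not between genes. Without the 3 libraries with few low-count genes, 26 DEGs were found, 10 higher and 16 lower, and all 83 genes had the same sign. Of the 83, 22 passed the test in those 5 libraries. With replicate number as a block in the fit of all 8, 301 genes passed, 167 higher and 134 lower, including all 83.

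**Figure D1:**
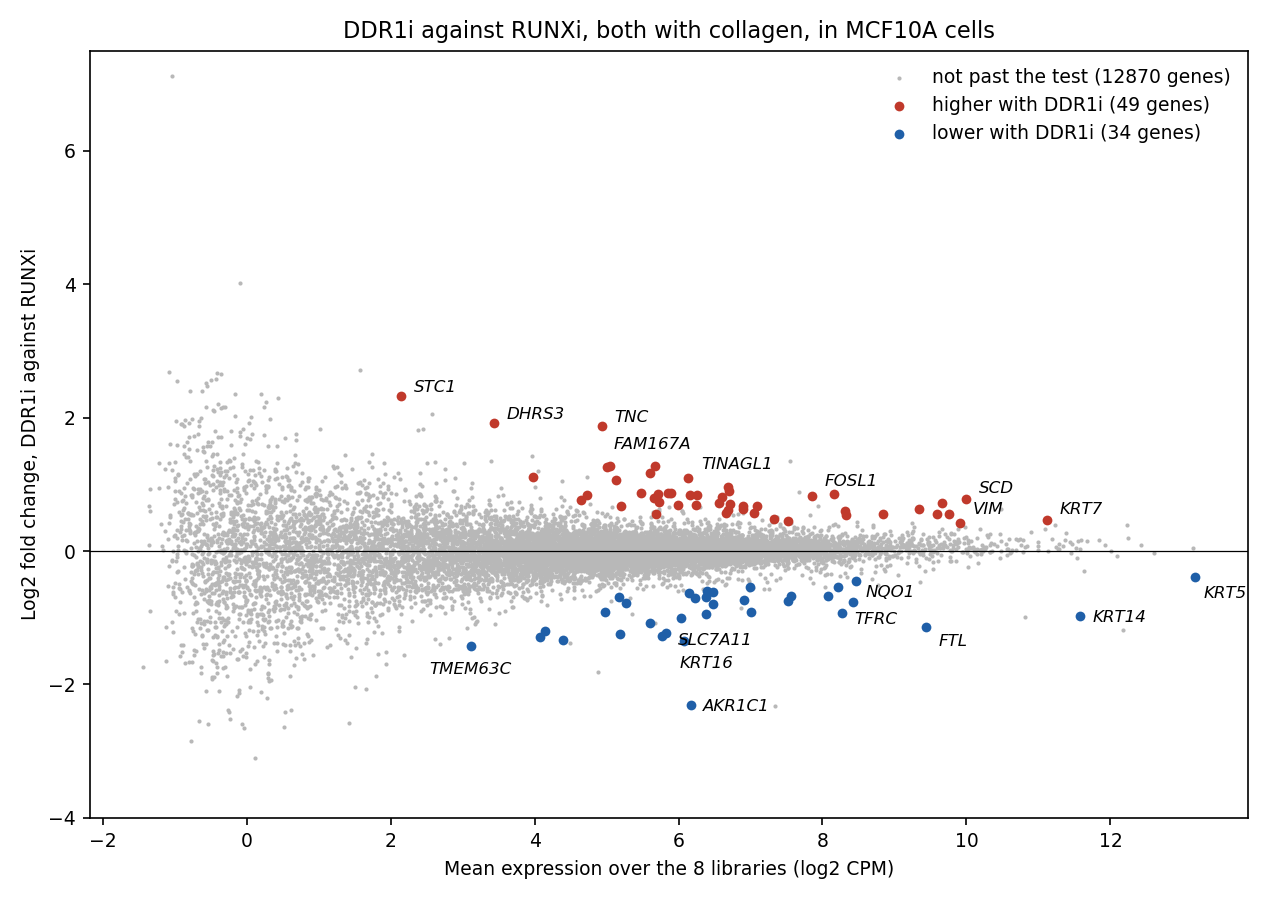
Log2 fold change of DDR1i against RUNXi for each of the 12953 genes tested, against its mean expression (log2 CPM) over the 8 libraries. The 49 red genes were higher and the 34 blue genes lower with DDR1i, grey genes did not pass the test, and the lowest called fold change is that of AKR1C1 at -2.30.

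**Figure D2:**
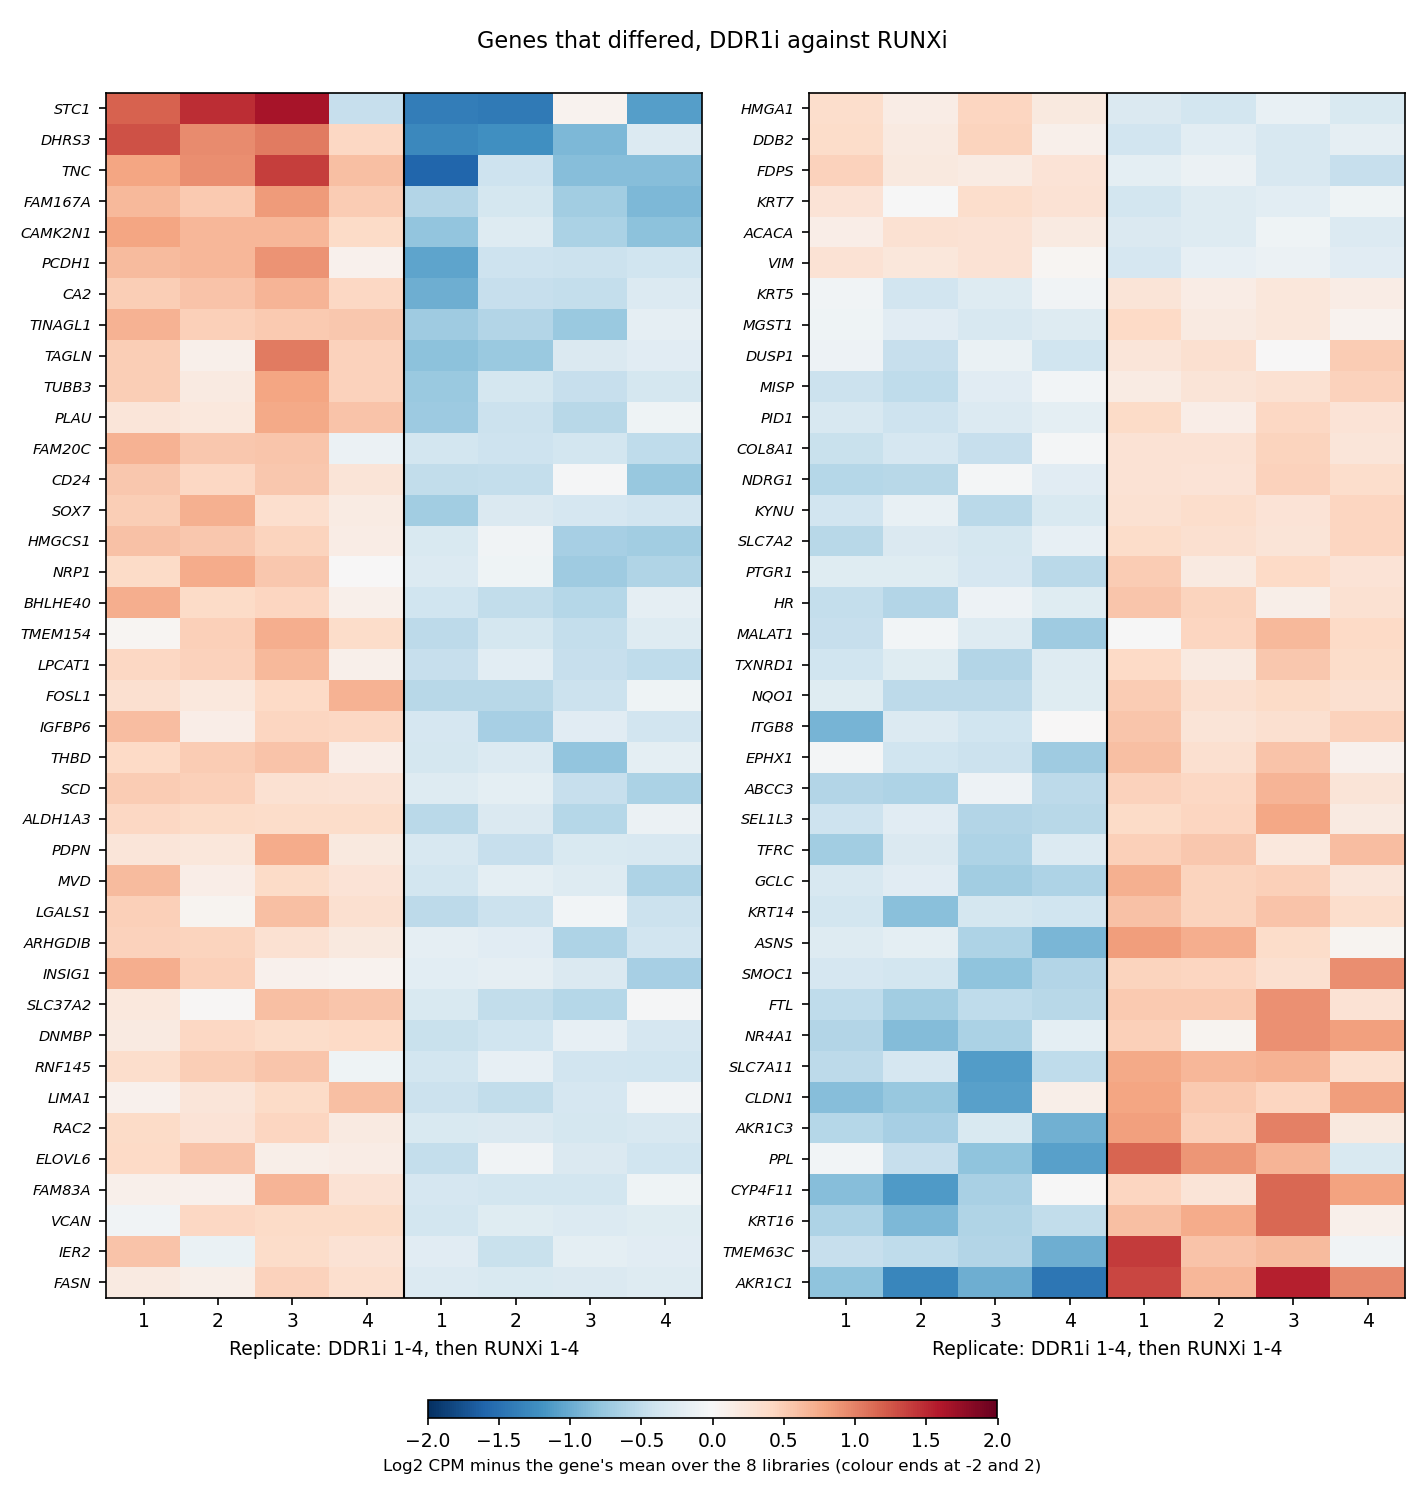
Log2 CPM of the DEGs reported by name in each of the 8 libraries, minus the mean of that gene over the 8 libraries, with genes ordered by fold change from STC1 (2.32) at the top left to AKR1C1 (-2.30) at the bottom right. Columns are DDR1i replicates 1 to 4 and RUNXi replicates 1 to 4, and the black line parts the inhibitors. STC1 and PPL are the genes whose DDR1i and RUNXi libraries overlap.

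Detoxification and antioxidant genes under NRF2 were among those lower with DDR1i than with RUNXi. Of 32 genes on a list of NRF2 targets, 31 were tested, and 10 were lower and 0 higher by the test, against 0.262% lower over all genes. This list and the others were chosen with earlier results of these data known, so that their shares past the test are descriptions. The median log2 fold change of the list was -0.45, against 0.0049 for all genes tested. The log2 CPM of the list, averaged over its members as a deviation from each gene's mean, was -0.24, -0.36, -0.42 and -0.36 in DDR1i replicates 1 to 4 and 0.41, 0.27, 0.53 and 0.18 in RUNXi replicates 1 to 4. Without the 3 libraries named above, 7 of the 31 were lower and 0 higher, and the median was -0.33.

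The aldo-keto reductases differed most within this list. AKR1C1, which inactivates progesterone, lies at chr10:5005445-5025475 (whole gene, GRCh37, as for the genes after it) and was at 30.0, 21.2, 26.5 and 19.0 CPM in DDR1i replicates 1 to 4 and at 134, 84.3, 157 and 103 CPM in RUNXi replicates 1 to 4. The lowest RUNXi library was above the highest DDR1i library, and the log2 fold change was -2.30 ± 0.18 (edgeR adjusted p = 3.13e-06). AKR1C3, a prostaglandin and steroid reductase of the same chromosome 10 cluster (chr10:5077546-5149878), was at 32.6, 30.5, 39.6 and 24.7 CPM with DDR1i and 87.0, 67.9, 98.7 and 56.2 CPM with RUNXi, and its log2 fold change was -1.28 ± 0.17 (edgeR adjusted p = 0.000307). AKR1C2, a near-identical copy of AKR1C1, was at 58.5, 48.9, 69.4 and 39.9 CPM with DDR1i and 259.8, 219, 459 and 148 CPM with RUNXi without overlap, and missed the threshold (log2 fold change -2.32 ± 0.37, edgeR adjusted p = 0.053). How reads shared by these copies were counted is not given in the sources used here, and the split between them is uncertain.

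SLC7A11, GCLC and TXNRD1, of glutathione and thioredoxin metabolism, were lower with DDR1i as well. SLC7A11, the cystine importer subunit of system xc-, was at 35.6, 40.6, 23.4 and 35.9 CPM in DDR1i replicates 1 to 4 and at 86.7, 81.5, 82.9 and 64.7 CPM in RUNXi replicates 1 to 4, with a log2 fold change of -1.22 ± 0.15 (edgeR adjusted p = 0.000222). GCLC, the catalytic subunit of glutamate-cysteine ligase, was at 62.5, 66.5, 47.8 and 50.6 CPM with DDR1i and 128, 107, 109 and 92.1 CPM with RUNXi (-0.94 ± 0.13, edgeR adjusted p = 0.000564). The groups did not overlap for either gene. Its modifier subunit GCLM was at 43.8 to 49.1 CPM with DDR1i and 59.8 to 68.7 CPM with RUNXi and did not pass the test (-0.41 ± 0.12, edgeR adjusted p = 0.165). TXNRD1, cytosolic thioredoxin reductase, was at 133, 149, 117 and 148 CPM with DDR1i and 231, 199, 257 and 228 CPM with RUNXi (-0.74 ± 0.11, edgeR adjusted p = 0.00073).

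The detoxifying enzyme NQO1, a quinone reductase at chr16:69740899-69760571, was at 279, 231, 230.0 and 279.6 CPM in DDR1i replicates 1 to 4 and at 469, 413, 432 and 412 CPM in RUNXi replicates 1 to 4. All 4 RUNXi libraries were above all DDR1i libraries, with a log2 fold change of -0.76 ± 0.10 (edgeR adjusted p = 0.000224). Other NRF2 targets that passed were the efflux transporter ABCC3 (-0.91 ± 0.13), the microsomal epoxide hydrolase EPHX1 (-0.79 ± 0.14) and the ferritin subunit FTL. Members that did not pass ranged in log2 fold change from -2.58 for AKR1B10 to 0.15 for OSGIN1, the only tested member above 0. Outside the list, the microsomal glutathione transferase MGST1 (-0.45 ± 0.10), the leukotriene-inactivating reductase PTGR1 (-0.68 ± 0.14), the fatty acid hydroxylase CYP4F11 (-1.34 ± 0.24) and the tryptophan-degrading enzyme KYNU (-0.68 ± 0.10) were lower with DDR1i too.

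Promoter windows are shown for AKR1C1, FTL, TXNRD1 and CYP4F11, which were lower with DDR1i than with RUNXi, and for SCD, which was higher. AKR1C2, which missed the threshold, is set beside AKR1C1, and RUNXi acts on DNA binding by RUNX proteins. Each window shown holds a match, and other genes that differed are not shown. The windows were taken from RefSeq on GRCh38.p14, in the direction of each gene, and cover part of the 250 bases before its start. Capitals mark a match to the antioxidant response element core TGACNNNGC in TXNRD1 and CYP4F11, and to the RUNX hexamer TGTGGT or TGCGGT in the rest, read on either strand.
TXNRD1 (chr12:104215658-104215710, + strand): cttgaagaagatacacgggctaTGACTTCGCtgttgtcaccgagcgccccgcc
CYP4F11 (chr19:15934993-15935045, - strand): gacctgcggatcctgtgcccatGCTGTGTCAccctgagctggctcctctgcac
AKR1C1 (chr10:4963207-4963256, + strand): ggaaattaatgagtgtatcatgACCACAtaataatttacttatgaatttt
AKR1C2 (chr10:5004020-5004069, - strand): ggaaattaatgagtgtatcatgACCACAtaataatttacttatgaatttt
FTL (chr19:48965199-48965248, + strand): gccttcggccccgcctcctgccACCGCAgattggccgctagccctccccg
SCD (chr10:100347101-100347150, + strand): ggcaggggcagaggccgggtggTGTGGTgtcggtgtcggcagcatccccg

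The windows of AKR1C1 and AKR1C2 hold the same 50 bases. A match is a description and not a site, and none of these letters was tested for binding. The antioxidant core was found in 5 of the 23 promoters available for genes lower with DDR1i (21.7%), in 4 of 30 for genes higher with DDR1i (13.3%) and in 12.1% of the 9646 promoters of all genes tested. A RUNX hexamer was found in 4 of 23 (17.4%) and 6 of 30 (20.0%), against 15.1% of all genes tested. Of 23 promoters available for the NRF2 target list, 5 held the antioxidant core (21.7%) and 8 a RUNX hexamer (34.8%). TXNRD1 is the only gene in both sets of 5 with the antioxidant core. The others lower with DDR1i were CYP4F11, DUSP1, KRT5 and MALAT1, and the others on the list CBR1, GCLM, ME1 and PGD. Promoters of AKR1C1, FTL and GCLC held no antioxidant core. The sterol regulatory element TCACNCCAC, searched on both strands as well, was found in 1 of 26 promoters of the cholesterol and fatty acid genes tested, against 0.809% of all genes tested.

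An iron storage gene, FTL, and an iron uptake gene, TFRC, differed in the same direction. FTL, the ferritin light chain at chr19:49468566-49470136, was at 449, 392.2, 449 and 435 CPM in DDR1i replicates 1 to 4 and at 919, 915, 1204 and 774 CPM in RUNXi replicates 1 to 4. The 4 DDR1i libraries lay close together and below every RUNXi library (log2 fold change -1.14 ± 0.11, edgeR adjusted p = 1.78e-05). FTH1, the ferritin heavy chain, was at 2844, 2519, 3484 and 2418 CPM with DDR1i and 6139, 5759, 9421 and 4257 CPM with RUNXi, without overlap, and missed the threshold (-1.18 ± 0.22, edgeR adjusted p = 0.0586). Both ferritin genes have processed pseudogenes, and reads shared with them are uncertain. TFRC, the transferrin receptor that brings iron into the cell, was at 179.7, 239.9, 191 and 241 CPM with DDR1i and 408, 427, 338 and 449.8 CPM with RUNXi, and its log2 fold change was -0.93 ± 0.11 (edgeR adjusted p = 0.000183). HMOX1, the heme-degrading oxygenase, was at 2.86, 2.79, 3.31 and 4.94 CPM with DDR1i and 10.5, 7.86, 11.3 and 5.01 CPM with RUNXi and did not pass (-1.32 ± 0.34, edgeR adjusted p = 0.0923). Of 18 iron handling genes tested, FTL and TFRC were lower and 0 higher by the test (11.1%, against 0.641% of all genes). The list median was -0.10.

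Cholesterol and fatty acid synthesis genes were among those higher with DDR1i than with RUNXi. Of 33 genes on this list 32 were tested, and 11 were higher and 0 lower by the test, against 0.378% higher over all genes. The list was chosen with earlier results of these data known. The median log2 fold change was 0.41, and 31 of the 32 had a positive value. The mean deviation of the list was 0.30, 0.20, 0.18 and 0.08 on the log2 scale in DDR1i replicates 1 to 4 and -0.15, -0.08, -0.18 and -0.36 in RUNXi replicates 1 to 4. Without the 3 libraries with few low-count genes the median was 0.41 as well, but 1 gene, SCD, passed the test (adjusted p = 0.0328).

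In the mevalonate arm, HMGCS1, the HMG-CoA synthase at chr5:43287572-43313614, was at 410.3, 394, 371 and 302 CPM in DDR1i replicates 1 to 4 and at 221, 259, 172 and 167 CPM in RUNXi replicates 1 to 4. The groups did not overlap, and the log2 fold change was 0.85 ± 0.13 (edgeR adjusted p = 0.00124). MVD (0.73 ± 0.13) and FDPS (0.55 ± 0.10), which carry mevalonate on to farnesyl diphosphate, passed as well. DHCR7 (0.41 ± 0.10, edgeR adjusted p = 0.0586) and LSS (0.44 ± 0.10, edgeR adjusted p = 0.0586) did not pass, although their groups did not overlap.

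In the fatty acid arm, SCD, the stearoyl-CoA desaturase at chr10:102106990-102124583, was at 1400.0, 1360.1, 1210.1 and 1196 CPM in DDR1i replicates 1 to 4 and at 816, 853, 709 and 631 CPM in RUNXi replicates 1 to 4, with a log2 fold change of 0.78 ± 0.10 (edgeR adjusted p = 0.000256). FASN, fatty acid synthase, was at 969, 928, 1167 and 1079.9 CPM with DDR1i and 708, 692, 698 and 715 CPM with RUNXi (0.56 ± 0.09, edgeR adjusted p = 0.00199). The RUNXi libraries of FASN lay close together, below every DDR1i library. The carboxylase ACACA (0.45 ± 0.10) and the elongase ELOVL6 (0.62 ± 0.13) passed too. The SREBP retention protein INSIG1 (0.70 ± 0.15) passed as well. The transcription factor genes SREBF1 (0.53 ± 0.13, edgeR adjusted p = 0.0632) and SREBF2 (0.06 ± 0.11, edgeR adjusted p = 0.981) did not.

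**Figure D3:**
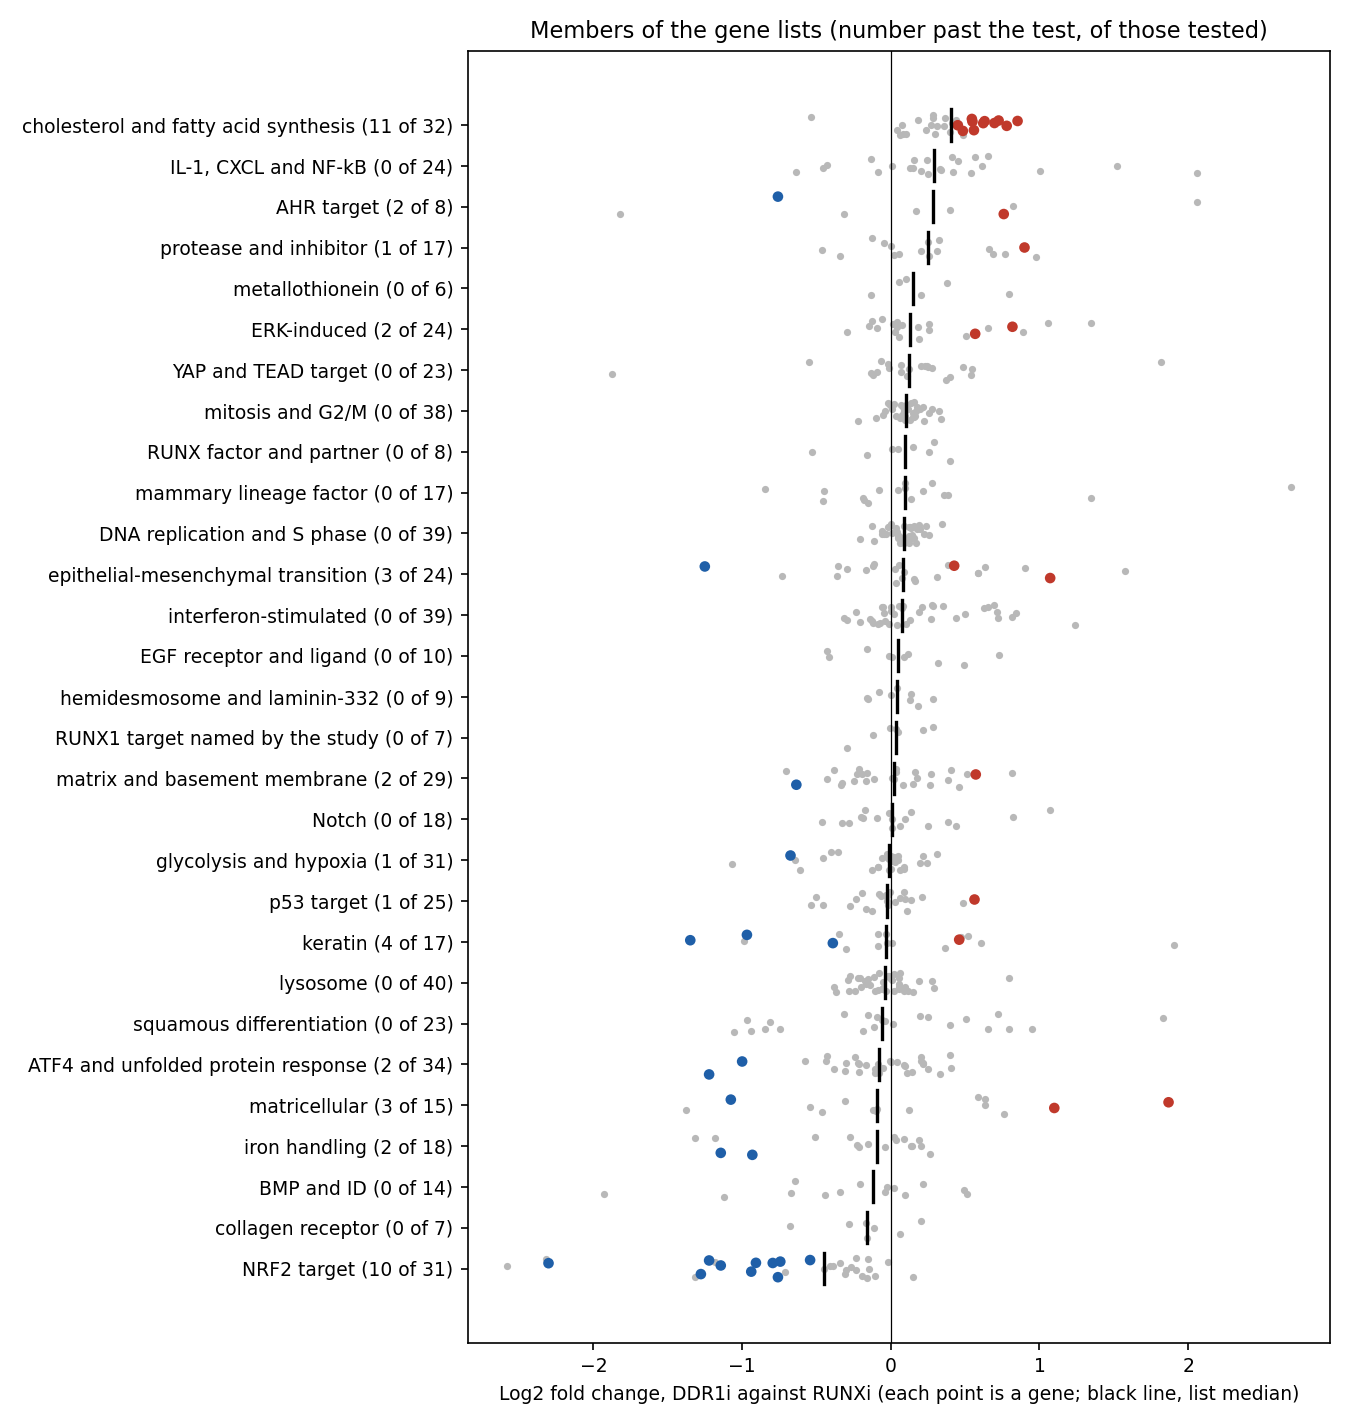
Log2 fold change of DDR1i against RUNXi for every tested member of each gene list, with 1 point per gene, DEGs in red (higher with DDR1i) or blue (lower) and the list median as a black line. The NRF2 target list has its median at -0.45 with 10 of 31 genes past the test, and the cholesterol and fatty acid list has its median at 0.41 with 11 of 32.

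The basal keratin genes KRT5 and KRT14, and KRT16, were lower with DDR1i than with RUNXi. KRT14, a basal keratin of the mammary epithelium at chr17:39738531-39743147, was at 2225, 1612, 2259.6 and 2196 CPM in DDR1i replicates 1 to 4 and at 4323, 3927, 4287 and 3677 CPM in RUNXi replicates 1 to 4. Levels with DDR1i were below all RUNXi libraries, with a log2 fold change of -0.97 ± 0.10 (edgeR adjusted p = 5.38e-05). KRT5, the partner with which KRT14 forms filaments, was at 8698, 7048, 7681 and 8726 CPM with DDR1i and 10922, 10193, 10795 and 10213 CPM with RUNXi (-0.39 ± 0.09, edgeR adjusted p = 0.0392). KRT16, a keratin of activated keratinocytes, was at 38.8, 31.9, 39.3 and 42.1 CPM with DDR1i and 90.5, 101, 133 and 63.9 CPM with RUNXi (-1.35 ± 0.17, edgeR adjusted p = 0.000222). KRT17 was at 1189, 785, 1376 and 1496 CPM with DDR1i and 2259, 1949, 3430.3 and 1969 CPM with RUNXi and did not pass (-0.99 ± 0.23, edgeR adjusted p = 0.152). Reads shared among KRT14, KRT16, KRT17 and their pseudogenes are uncertain.

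The simple epithelial keratin KRT7, a luminal marker, differed in the opposite direction. It was at 2655, 2179, 2792 and 2666 CPM in DDR1i replicates 1 to 4 and at 1699.8, 1823, 1897 and 2061 CPM in RUNXi replicates 1 to 4, and the groups did not overlap (0.46 ± 0.09, edgeR adjusted p = 0.0186). KRT7 passed in 3 of the 8 fits that left out a library and KRT5 in 2, whereas KRT14 and KRT16 passed in all 8. Without the 3 libraries with few low-count genes, KRT5 (edgeR adjusted p = 0.999) and KRT7 (edgeR adjusted p = 0.981) did not pass. Of 17 keratins tested, KRT5, KRT14 and KRT16 were lower and KRT7 higher (23.5%, against 0.641% of all genes), and the list median was -0.03. KRT18 (0.37 ± 0.11, edgeR adjusted p = 0.173) and KRT8 (-0.09 ± 0.30, edgeR adjusted p = 0.992), keratins of simple epithelium, did not pass. None of 23 squamous differentiation genes passed. PPL, which encodes the desmosomal plakin periplakin and was not among those 23, was at 13.8, 10.3, 8.10 and 6.52 CPM with DDR1i and 33.1, 27.0, 23.3 and 11.7 CPM with RUNXi (-1.29 ± 0.28, edgeR adjusted p = 0.0336), with an overlap between the groups.

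Of 24 genes tested on the epithelial-mesenchymal transition list, 3 passed (12.5%, against 0.641% of all genes). VIM, the mesenchymal filament protein vimentin, was at 1171, 1116, 1168 and 978 CPM in DDR1i replicates 1 to 4 and at 759, 848, 876 and 816 CPM in RUNXi replicates 1 to 4 (0.43 ± 0.09, edgeR adjusted p = 0.0226). TAGLN, the actin-binding transgelin, was at 45.0, 34.1, 65.7 and 44 CPM with DDR1i and 17.9, 18.9, 25.9 and 27.2 CPM with RUNXi (1.07 ± 0.19, edgeR adjusted p = 0.00531). The tight junction gene CLDN1 was at 17.6, 18.7, 14.9 and 34.9 CPM with DDR1i and 56.1, 46.4, 43.5 and 57.8 CPM with RUNXi, and was lower with DDR1i (-1.25 ± 0.21, edgeR adjusted p = 0.00392). VIM and TAGLN were thus higher and CLDN1 lower with DDR1i, and the other 21 of 24 tested genes did not pass, CDH1 (0.16 ± 0.13, edgeR adjusted p = 0.925) and ZEB1 (0.90 ± 0.37, edgeR adjusted p = 0.539) among them. VIM passed in 3 of the 8 fits that left out a library.

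Matricellular genes, whose products signal from the matrix without building it, differed in both directions. TNC, tenascin-C at chr9:117781854-117880486, was at 42.2, 46.7, 64.6 and 37.3 CPM in DDR1i replicates 1 to 4 and at 7.80, 18.1, 13.2 and 13.2 CPM in RUNXi replicates 1 to 4. The lowest DDR1i library was above the highest RUNXi library, and the log2 fold change was 1.87 ± 0.22 (edgeR adjusted p = 0.00015). TINAGL1 was at 105, 90.1, 93.2 and 94.7 CPM with DDR1i and 39.5, 42.9, 38.8 and 57.3 CPM with RUNXi (1.1 ± 0.13, edgeR adjusted p = 0.000152). SMOC1, a calcium-binding matricellular protein, was at 35.4, 34.6, 25.4 and 29.8 CPM with DDR1i and 61.3, 60.4, 56.3 and 85.7 CPM with RUNXi, and was lower with DDR1i (-1.08 ± 0.15, edgeR adjusted p = 0.000574). Of 15 matricellular genes tested, 2 were higher and 1 lower (20.0%, against 0.641% of all genes). Of 29 matrix and basement membrane genes tested, the proteoglycan VCAN was higher (0.57 ± 0.12) and the collagen COL8A1 lower (-0.64 ± 0.12), or 6.9% of them. None of 9 hemidesmosome and laminin-332 genes passed.

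Among 17 proteases and their inhibitors, 1 passed (5.88%, against 0.641% of all genes). PLAU, the urokinase plasminogen activator, was higher with DDR1i. It was at 116, 114, 166 and 146 CPM in DDR1i replicates 1 to 4 and at 59.4, 73.0, 66.7 and 92.2 CPM in RUNXi replicates 1 to 4 (0.90 ± 0.14, edgeR adjusted p = 0.00196). FOSL1, the AP-1 subunit FRA-1 and a target of ERK, was at 275, 256, 291 and 356 CPM with DDR1i and 149.7, 149, 162 and 206 CPM with RUNXi, without overlap (0.82 ± 0.12, edgeR adjusted p = 0.00084). Together with the immediate-early gene IER2 (0.57 ± 0.13) it made 2 of 24 ERK-induced genes that were higher (8.33%), and 0 were lower. EGR1, the immediate-early zinc finger factor, was at 246, 156, 391 and 283 CPM with DDR1i and 84.3, 87.9, 131 and 120.0 CPM with RUNXi and did not pass (1.35 ± 0.26, edgeR adjusted p = 0.0674). The immediate-early genes NR4A1 (-1.19 ± 0.22) and DUSP1 (-0.55 ± 0.11), which encode an orphan nuclear receptor and a MAP kinase phosphatase and were not on that list, were lower with DDR1i.

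Enzymes of retinoid metabolism were among the genes higher with DDR1i. DHRS3, which reduces retinaldehyde to retinol, was at 21.3, 16.8, 18.0 and 11.5 CPM in DDR1i replicates 1 to 4 and at 3.18, 3.35, 4.35 and 6.92 CPM in RUNXi replicates 1 to 4 (1.92 ± 0.28, edgeR adjusted p = 0.000769). ALDH1A3, which oxidizes retinaldehyde to retinoic acid, was at 32.1, 31.3, 31.0 and 31.0 CPM with DDR1i and 16.3, 19.5, 16 and 22.1 CPM with RUNXi (0.76 ± 0.16, edgeR adjusted p = 0.0226). The groups did not overlap for either gene. DHRS3 passed in all 8 fits that left out a library, ALDH1A3 in 1, and without the 3 libraries with few low-count genes ALDH1A3 did not pass (edgeR adjusted p = 0.383). No retinoid list was made, and these 2 genes were put together after their values were seen. ALDH1A3 also stands on the list of AHR targets, of which it was higher and NQO1 lower among 8 tested.

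Further genes that led by adjusted p or size of change are given by range. FAM167A was at 65.8 to 83.5 CPM with DDR1i and 24.4 to 35.9 CPM with RUNXi (1.27 ± 0.14, edgeR adjusted p = 5.59e-05). CAMK2N1, an inhibitor of the kinase CaMKII, was at 38 to 50.5 and 16.3 to 24.1 CPM (1.27 ± 0.16, edgeR adjusted p = 0.000222). The neuronal tubulin TUBB3 (0.97 ± 0.13), the protocadherin PCDH1 (1.16 ± 0.17), the phospholipid acyltransferase LPCAT1 (0.83 ± 0.13) and the insulin-like growth factor binding protein IGFBP6 (0.80 ± 0.12) were higher as well. STC1, the secreted hormone stanniocalcin 1, had the largest positive fold change of a DEG (2.32 ± 0.52, edgeR adjusted p = 0.0416), at 7.31, 9.08, 10.3 and 2.02 CPM with DDR1i and 0.826, 0.791, 3.13 and 1.11 CPM with RUNXi, with overlap, and passed in 2 of the 8 fits that left out a library. The carbonic anhydrase CA2 (1.1 ± 0.20) was higher too. Other genes higher with DDR1i were RAC2 and ARHGDIB, the transcriptional regulators SOX7, BHLHE40 and HMGA1, the surface proteins CD24, THBD, PDPN, NRP1 and TMEM154, the galectin LGALS1, the secreted kinase FAM20C, LIMA1, RNF145, DNMBP, FAM83A, SLC37A2 and DDB2, with log2 fold changes from 0.56 to 0.87.

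Among genes lower with DDR1i, the asparagine synthetase gene ASNS was at 50.2, 52.6, 39.1 and 31.9 CPM in DDR1i replicates 1 to 4 and at 107, 100.1, 78.0 and 62.5 CPM in RUNXi replicates 1 to 4 (-1.0 ± 0.17, edgeR adjusted p = 0.0048). ASNS and SLC7A11 were the 2 of 34 ATF4 and unfolded protein response genes that were lower (5.88%, against 0.641% of all genes), and 0 were higher. NDRG1, a stress- and hypoxia-induced gene, was at 174 to 254 CPM with DDR1i and 315 to 359 CPM with RUNXi (-0.68 ± 0.11). It was the only 1 of 31 glycolysis and hypoxia genes to pass (3.23%). TMEM63C, which encodes a membrane channel, was at 5.21, 5.05, 4.74 and 3.48 CPM with DDR1i and 20.1, 11.2, 11.7 and 6.96 CPM with RUNXi (-1.43 ± 0.30, edgeR adjusted p = 0.0244). The remaining genes lower with DDR1i were SLC7A2, SEL1L3, PID1, HR, MISP, the integrin gene ITGB8 and the nuclear long non-coding RNA MALAT1, with log2 fold changes from -0.91 to -0.60.

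No difference was detected in RNA of the targets of the inhibitors. DDR1 was at 119, 109.6, 134 and 147 CPM in DDR1i replicates 1 to 4 and at 133, 127, 149 and 163 CPM in RUNXi replicates 1 to 4, and its log2 fold change was -0.16 ± 0.12 (95% confidence interval -0.40 to 0.08, edgeR adjusted p = 0.888). RUNX1 was at 53.5, 60.5, 64.1 and 69.7 CPM with DDR1i and 58.0, 55.2, 67.0 and 65.6 CPM with RUNXi, with a log2 fold change of 0.01 ± 0.12 (-0.24 to 0.27, edgeR adjusted p = 0.997). CBFB, which encodes CBFβ, was at 57.1, 65.7, 70.5 and 61.8 CPM with DDR1i and 65.4, 68.2, 58.2 and 55.1 CPM with RUNXi (0.05 ± 0.12, -0.20 to 0.30, edgeR adjusted p = 0.988). The groups overlapped for all 3 genes, as for all but 4.55% of the genes tested, and a p that misses the threshold does not show that levels were alike. RUNX2 was low, at 1.96 to 4.32 CPM with DDR1i and 2.43 to 3.18 CPM with RUNXi, and its interval was wide (-0.71 to 1.23). RUNX3 had 0 counts in the 8 libraries and DDR2 had 41 in all, and neither was tested. Both inhibitors act on protein, so that RNA of the target genes does not measure inhibition.

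None of 7 genes that the study treats as RUNX1 targets passed the test. Over all genes 0.641% passed, so that a count of 0 in a list of this size is near that of all genes. MYC, a growth-promoting transcription factor, was at 432, 421, 395 and 431 CPM in DDR1i replicates 1 to 4 and at 503, 558, 424 and 577 CPM in RUNXi replicates 1 to 4 (-0.30 ± 0.10, 95% confidence interval -0.50 to -0.09, edgeR adjusted p = 0.322). ID1, an inhibitor of basic helix-loop-helix factors, was at 58.7 to 103 and 54.8 to 74.0 CPM (0.22 ± 0.16, -0.12 to 0.55, edgeR adjusted p = 0.899). DUT, the dUTPase, was at 97.9 to 138 and 97.3 to 126 CPM (0.05 ± 0.12, -0.20 to 0.30, edgeR adjusted p = 0.988). The transcription factor genes CEBPD (-0.01 ± 0.17, -0.37 to 0.35) and STAT3 (-0.12 ± 0.11, -0.36 to 0.12), the histone chaperone ANP32B (0.03 ± 0.09, -0.16 to 0.23) and the cytolinker plectin, PLEC (0.28 ± 0.23, -0.24 to 0.80), did not pass either. All 7 had overlapping groups, as did all but 4.55% of the genes tested. With replicate number as a block in the fit, MYC passed (-0.29, edgeR adjusted p = 0.0377). The study reported these genes as changed by DDR1i against control in single-cell RNA-seq of organoids. Here the inhibitors are set against each other, so that a response common to both would not show. Beside collagen replicates 1, 2 and 4, the median difference of the 7 genes was -0.45 with DDR1i and -0.48 with RUNXi (log2(CPM + 0.5) scale). These medians share the collagen libraries and were not tested.

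Further lists had 0 genes past the test. These were collagen receptors (7 tested), RUNX factors and partners (8), EGF receptors and ligands (10), YAP and TEAD targets (23), mammary lineage factors (17), BMP and ID genes (14), Notch (18), interferon-stimulated genes (39), metallothioneins (6) and lysosomal genes (40). Cell cycle lists had 0 past the test as well, with 38 mitotic genes at a median of 0.10 and 39 genes of DNA replication at 0.09. Of 24 genes of IL-1, CXCL chemokines and NF-kB, 0 passed and the median was 0.29. The p53 list had 1 of 25 past the test, DDB2. Against the background of 0.641%, a count of 0 in lists of this size is near that of all genes.

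Levels with collagen alone are set beside these values without a test, using collagen replicates 1, 2 and 4 (replicate 3 was removed by the authors). Each inhibitor group is set beside the same collagen libraries. AKR1C1 was at 19.0 to 30.0 CPM with DDR1i, 34.5 to 47.8 CPM with collagen alone and 84.3 to 157 CPM with RUNXi. TFRC was at 179.7 to 241, 185 to 214 and 338 to 449.8 CPM in that order, so that the collagen-only range lay within the DDR1i range and below RUNXi. KRT14 was at 1612 to 2259.6, 3364 to 4804 and 3677 to 4323 CPM, and KRT16 at 31.9 to 42.1, 84.3 to 94.4 and 63.9 to 133 CPM. For KRT14 and KRT16 the DDR1i libraries were thus the ones below the others. KRT7 was at 2179 to 2792, 2412 to 3287 and 1699.8 to 2061 CPM, with the RUNXi libraries below the others. TNC was at 37.3 to 64.6, 20.8 to 25.9 and 7.80 to 18.1 CPM, with collagen alone between the inhibitors in these 3 libraries. The library that the authors removed was at 48.3 CPM for TNC and 29.0 CPM for AKR1C1, within the DDR1i range for both. TINAGL1 was at 90.1 to 105, 78.5 to 98.4 and 38.8 to 57.3 CPM, with RUNXi below the others.

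Over the NRF2 target list the median difference from collagen alone, on the log2(CPM + 0.5) scale, was -0.24 with DDR1i and 0.45 with RUNXi. Over the cholesterol and fatty acid list it was -0.0031 with DDR1i and -0.33 with RUNXi. These medians share the collagen libraries and were not tested.

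**Figure D4:**
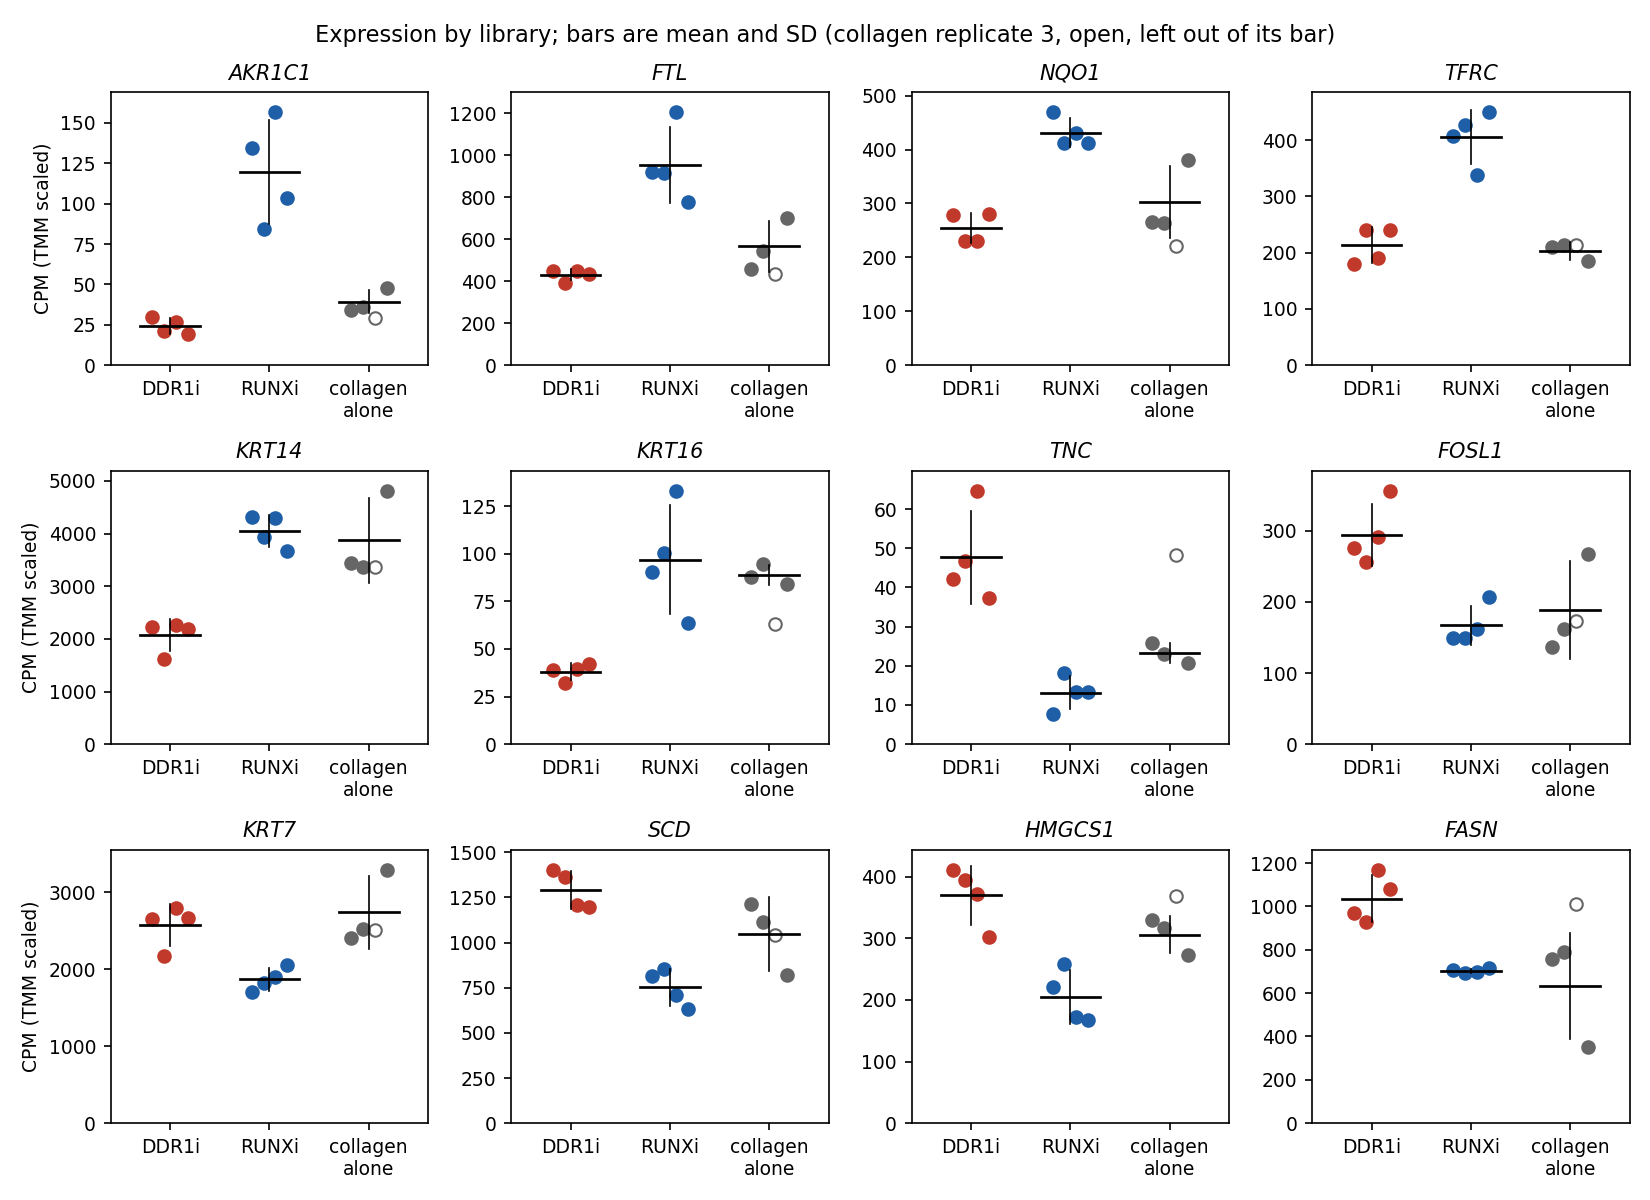
CPM of 12 DEGs in each DDR1i, RUNXi and collagen-only library, with 1 point per library and black bars for the mean and SD of each group (n = 4, 4 and 3). Collagen replicate 3 is drawn open and left out of its bar, and the collagen-only libraries were in no test. DDR1i points lie below all RUNXi points for AKR1C1, FTL, NQO1, TFRC, KRT14 and KRT16 and above them for the other 6 genes.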

How the data were processed

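RNA-seq was carried out on MCF10A cells, and 8 of 16 libraries were compared, 4 with collagen and DDR1i against 4 with collagen and RUNXi. Groups and replicates came from the labels, doses and times from the methods of the study. The authors aligned reads with STAR to hg19 (per the labels' processing notes) and deposited raw counts of reads for each gene. The counter, annotation and strand setting are not given in the sources used here. The table has 26475 genes, 28 of them with a date in place of a name. Of these, 22606 matched the GENCODE annotation of GRCh37, which gave positions.

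Counts were tested with edgeR 4.0.16 in R 4.3.3 (TMM, filterByExpr, robust quasi-likelihood fit, adjusted p under 0.05) on the 8 libraries alone, and the test was tried on simulated data. Replicates differed by more than sampling noise (lowest chi-square per degree of freedom 19.8). The genes named are the 15 with the smallest adjusted p and the 5 with the largest change in each direction, every DEG of a list, and the inhibitors' targets and RUNX1 targets of the study, with close paralogs beside them. The remaining DEGs were named after their values were seen. Members and lists were chosen with earlier results of these data known. Alternatives used DESeq2 1.42.0, limma 3.58.1, other scalings, filters and thresholds, a replicate block, thinning to 15558341 counts, other sets of libraries and leaving out each library. Promoters came from RefSeq (GRCh38.p14), for 9646 of the genes tested. Some genes and results are not reported here. Figures were drawn with Python 3.11.15 and matplotlib 3.10.9.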

Additional observations from a re-analysis of the deposited data

Results flagged for a closer look

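In 14 of 184 groups of 4 libraries, the highest or lowest library stood apart from the other 3 by more than Dixon's 95% limit, where chance gives about 9.2. No explanation was tested. With DDR1i, replicate 3 was highest for the transporter gene ABCC3 (112.6 CPM) and the surface protein gene PDPN (85.43 CPM). KRT14 was lowest in DDR1i replicate 2 (1612 CPM), and VCAN in DDR1i replicate 1 (93.97 CPM). With RUNXi, PCDH1 was lowest in replicate 1 (20.77 CPM). In RUNXi replicate 2, LPCAT1 (63.01 CPM) and RNF145 (102.8 CPM) were highest, and IER2 (94.12 CPM) and PDPN (36.74 CPM) lowest. In RUNXi replicate 3, STC1 (3.132 CPM), ACACA (169.9 CPM) and LGALS1 (750.5 CPM) were highest. In RUNXi replicate 4, SMOC1 (85.73 CPM) and FAM83A (290.6 CPM) were highest. DDR1i replicate 3 and RUNXi replicates 1 and 3, the 3 of 8 libraries with few genes at 1 to 9 counts, held 6 of these 14 values. That is near their share of the libraries.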

How the results depend on the processing

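All 83 DEGs kept their direction in every alternative fit, and 20 of them passed in each. More genes passed with DESeq2 (177, 97 higher and 80 lower), without the filter on low counts (184, 97 higher and 87 lower) and at an unadjusted p under 0.05 (959, 492 higher and 467 lower). Fewer passed without the 3 libraries with few genes at 1 to 9 counts, an alternative chosen after seeing the data (26, 10 higher and 16 lower, 38.5% of them higher). In the fit of all 16 libraries 22 genes were lower. The former fit held fewer samples, and in the latter all groups shared 1 estimate of the spread. The part of either in these counts was not tested. Replicate numbers were not treated as pairing in the main fit, and the labels do not say that same-numbered libraries belong together. Those of the inhibitors correlated at 0.062, 0.173, 0.090 and 0.211 in their deviations from group means, and each correlated best with its own number. The main fit may therefore leave out a pairing. With the replicate block 301 of the 12953 genes tested passed, 167 higher and 134 lower, including all 83. List counts in this fit are thus to be read against 301 genes over all, and not 83. With the block, 16 of 31 NRF2 targets were lower (10 without) and 17 of 32 cholesterol and fatty acid genes higher (11 without). Of 18 iron handling genes, 4 were lower (2 without). Of 24 ERK-induced genes, 7 were higher and 1 lower (2 and 0 without), and of 17 keratins 2 were higher and 5 lower (1 and 3 without). Of the RUNX1 targets MYC passed (adjusted p = 0.0377, edgeR). Leaving out each library gave 62 to 101 DEGs, 37 to 53 higher and 25 to 50 lower (50.5% to 61.5% higher), fewest without RUNXi replicate 2 and most without RUNXi replicate 4, and 55 of the 83 passed in every such fit. ALDH1A3, DDB2 and IER2 passed in 1 of the 8, KRT5, MGST1, TMEM63C, PPL, ITGB8 and STC1 in 2, and VIM, KRT7, SLC37A2, ACACA, VCAN, DUSP1 and INSIG1 in 3. The difference in library totals ranged from -2564473 to 1164573 counts on leaving out each library, and that in genes detected from 221 to 1251. Depth limits genes such as RUNX2 and STC1, at a few CPM.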
